A study of Mus musculus with 10 samples.

Results

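The genes described here encode tissue factor, thrombomodulin and their partners in blood clotting, together with the plasminogen activators. They are Thbd, Procr, F3, F2r, F2rl1, Tfpi, Tfpi2, Plat, Plau and Plaur, 10 of the 37298 rows of the deposited expression table, and each matched 1 row by its symbol. The group was chosen by the FPKM difference of Thbd between Sox9 conditional knockout (cKO) and control libraries, which was already known, and filled with genes of the same pathways. Differences between these genotypes are therefore given below as descriptions, without a test.

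Tissue factor, a cell-surface receptor, starts clotting by binding factor VII, and the chain of proteases that follows produces thrombin. Thrombin makes fibrin and also cuts protease-activated receptors on cells, unless it is captured by thrombomodulin, which turns it towards activating protein C. Plasminogen activators produce plasmin, which dissolves fibrin and acts on matrix around cells. Keratinocytes of the skin are known to make tissue factor, thrombomodulin and the activators themselves, away from the blood.

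RNA was sequenced from 4 samples of hair follicle stem cells (HFSCs), the resting stem cells of the bulge, sorted from mouse back skin in telogen as integrin α6-high, CD34+, ScaI- and YFP+ cells. All 4 came from mice on a mixed C57BL6 background given RU486 to activate CrePGR, a Cre recombinase that this drug switches on. The labelled cKO and control groups have 2 libraries each. In both groups replicate 1 is male, aged 75 days and treated on days 48 to 61, and replicate 2 is female, aged 80 days and treated on days 53 to 66. The control titles say Sox9 Het while their genotype field says wild type. In the sources used here, no promoter is named for the Cre and no number of mice for a library. Chromatin bound by SOX9 was sequenced (ChIP-seq) from 2 HFSC samples and 1 of interfollicular epidermal (IFE) cells, sorted as CD34-, from untreated CD-1 females aged 52 to 60 days, with 1 list of peaks deposited per library.

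Values are FPKM, fragment counts relative to the length of the transcript and to the mapped fragments of the library, so levels of different genes can be set side by side. They summed to between 555420 and 903766 over all rows of a library, and the number of reads behind them is unknown. Sox9, the targeted gene, stood at 71.3 FPKM in labelled cKO 1 against 82.7 in control 1, and at 80.5 in labelled cKO 2 against 46.5 in control 2. It was thus lower in 1 labelled cKO library and higher in the other, so directions follow the labels. All 10 bulge markers, Cd34, Itga6, Krt15 and Lgr5 among them, were at 5.41 FPKM or more in every library. Of 11 endothelial markers only Egfl7 reached 1 FPKM, and the summed level of the list lay between 1.95 and 4.35 FPKM, with Cldn5 listed at 0 in all 4 libraries and Cdh5, Kdr, Tie1, Emcn and Esam in at least 1. Fibroblast markers summed to between 8.66 and 22.6 FPKM, immune markers to between 32.6 and 83.2, melanocyte markers to between 14.8 and 47.3, and markers of suprabasal and granular cells to between 3070 and 8360, the last highest in the replicate 2 libraries.

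**Figure D1:**
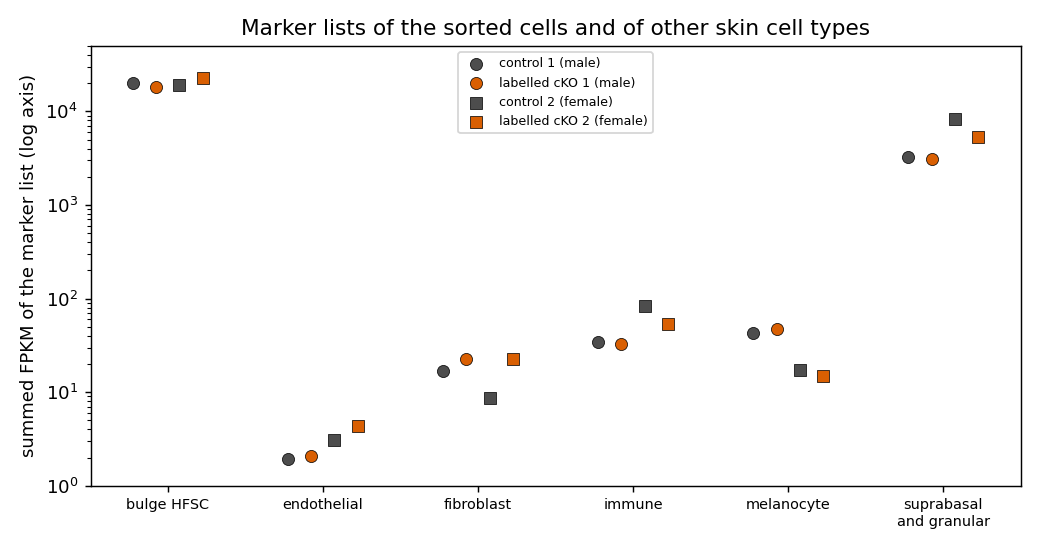
Summed FPKM (log axis) of 6 marker lists in the 4 RNA libraries, with circles for the male and squares for the female pair and grey for control and orange for labelled cKO. Bulge markers sum to at least 18400 FPKM in every library, most of it the keratins Krt15, Krt5 and Krt14, and endothelial markers to at most 4.35.

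In the controls F3 was the most abundant of the 10 genes, at 39.9 ± 26.3 FPKM (SD, n = 2), a level that at least 80.5% of the 14455 genes with a mean of 1 FPKM or more did not exceed. F2rl1 followed at 24.5 ± 7.93 and Plat at 14.2 ± 7.04 FPKM. The control ranges of F3 and F2rl1 overlapped, and so did those of F2rl1 and Plat. Plau stood at 4.50 FPKM in both controls, F2r at 3.42 ± 1.60 and Thbd at 2.41 ± 0.488 FPKM (SD, n = 2). The range of F2r overlapped the values of Plau and of Thbd, whereas Plat lay above Plau in all 4 libraries. Procr at 1.05 ± 0.181, Tfpi at 0.540 ± 0.286 and Plaur at 0.277 ± 0.0907 FPKM were low, the last 2 with overlapping ranges, and Tfpi2 was listed at 0 in all 4 libraries. Procr, Tfpi, Tfpi2 and Plaur had a mean over the 4 libraries below 1 FPKM and did not pass the filter, so that 6 of the 10 genes entered the fits.

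**Figure D2:**
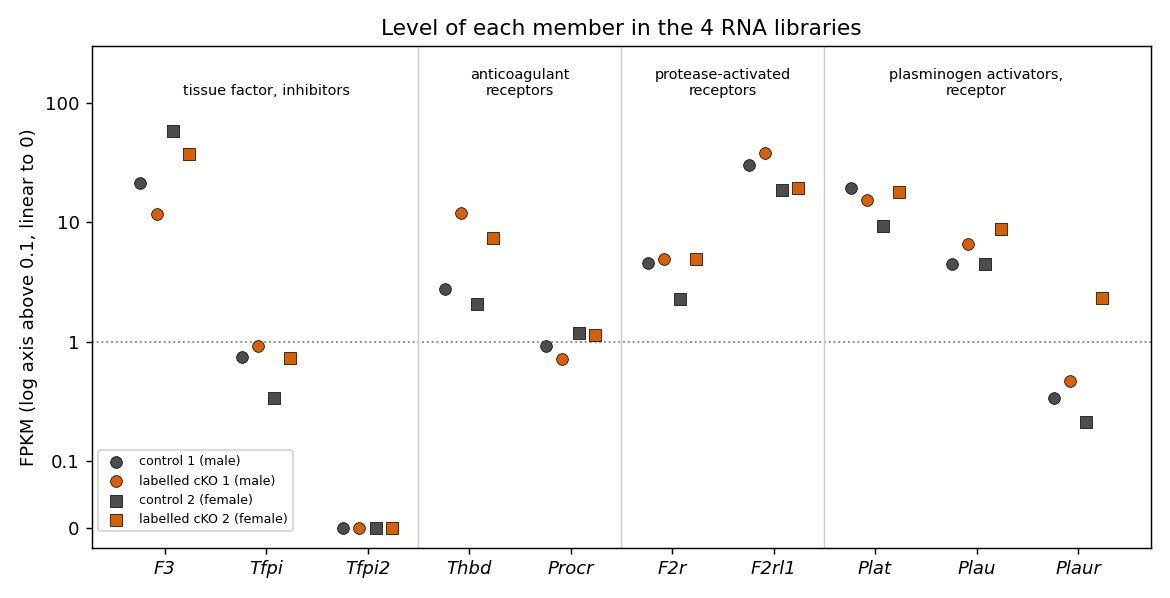
FPKM of each gene in the 4 RNA libraries (log axis above 0.1, linear below; the dotted line marks 1 FPKM), with circles for the male and squares for the female pair and grey for control and orange for labelled cKO. Thbd is higher in both labelled cKO libraries (11.97 and 7.43 FPKM) than in both controls, and F3 is higher in the replicate 2 libraries.

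F3, which encodes tissue factor, differed most between the replicates. It stood at 21.3 FPKM in control 1, 11.7 in labelled cKO 1, 58.5 in control 2 and 37.2 in labelled cKO 2. Both female libraries were thus above both male ones, and within each pair the labelled cKO library was the lower. Between replicate 2 and replicate 1, F3 rose 2.75-fold in the controls and 3.18-fold in the labelled cKO libraries, a mean difference of 1.50 ± 0.14 on the log2(FPKM + 1) scale (moderated SE; limma with replicate and genotype as terms, adjusted p = 0.000343, n = 2 libraries per replicate). Of all tested genes, 3.06% had a larger rise. This contrast called 50% of the 14455 tested genes, 25.8% higher and 24.1% lower in replicate 2, so that 2 calls among the 6 tested genes of the group are no more than the background share. Sex, age, days of treatment and any difference in preparation go together in it and cannot be told apart. The summed markers of suprabasal and granular cells moved the same way, from 3220 and 3070 FPKM in control 1 and labelled cKO 1 to 8360 and 5340 in control 2 and labelled cKO 2. Of the 6 markers 4 were called higher in replicate 2 (Lor, Krt10, Ivl and Sbsn, limma). Krt1 was at -0.24 and the rows of Flg lay between 0.03 and 0.39, none of them called. Immune markers also summed higher in replicate 2, at 83.2 FPKM in control 2 against 34.4 in control 1. In labelled cKO 2 they summed to 53.6 FPKM against 32.6 in labelled cKO 1, and Cd74 was called higher (limma). The endothelial sum also rose, at 4.35 FPKM or less, while the melanocyte sum fell. The fibroblast sum fell in the controls and was 22.6 FPKM in both labelled cKO libraries. The part of any of these cell types in the F3 difference was not tested. Without the replicate 1 library labelled cKO the F3 difference was 1.10 (limma, adjusted p = 0.0939), and without the replicate 1 control 1.91 (adjusted p = 0.0907). In those fits 0 and 1 of all genes were called.

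Against the controls, F3 was 1.82-fold lower in the male labelled cKO library and 1.57-fold lower in the female one, log2 differences of -0.81 and -0.64. The 2 genotypes overlapped, since the replicates lie further apart than the genotypes. With labelled cKO 1 left out and genotype as the only term, the difference was 0.07, and without control 2 it was -0.02; part of the difference between replicates enters both values.

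The inhibitors of tissue factor were at low levels. Tfpi, whose product blocks the complex of tissue factor with factor VII, stood at 0.742 FPKM in control 1, 0.917 in labelled cKO 1, 0.337 in control 2 and 0.733 in labelled cKO 2. It was the higher in the labelled cKO library of each pair, and the genotypes overlapped, since labelled cKO 2 lay just below control 1. Tfpi2 encodes a related inhibitor of serine proteases of the matrix. With an unknown depth, its listing at 0 does not show absence.

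Thbd, which encodes thrombomodulin, stood at 2.75 FPKM in control 1, 11.97 in labelled cKO 1, 2.07 in control 2 and 7.43 in labelled cKO 2. Both labelled cKO libraries were above both controls. The difference was 4.35-fold in the male pair and 3.60-fold in the female pair, or 1.79 and 1.46 on the log2(FPKM + 1) scale, which understates low values. Thbd lay above the controls by at least 1 log2 unit in both pairs, as did 0.194% of all tested genes. This share is no test of Thbd, which was picked for its difference. Over all 14455 tested genes, limma called 0 between genotypes with genotype as the only term (93 genes had p under 0.05 before adjustment). With the replicate number as a block it called 0.284%, with 0.104% higher and 0.18% lower in the labelled cKO libraries. Since the difference of Thbd chose the group, no call is given for its 10 genes in this contrast. Between replicates Thbd differed by -0.46 ± 0.20 and did not pass the test (limma, adjusted p = 0.0949). The 11 endothelial markers summed to 1.95 FPKM in control 1, 2.06 in labelled cKO 1, 3.12 in control 2 and 4.35 in labelled cKO 2, most of it Egfl7 (1.69, 1.54, 2.98 and 3.78 in that order). Only 2 of the 11 markers, Cdh5 and Esam, were higher in the labelled cKO library of both pairs. Both were listed at 0 in both controls. In labelled cKO 1 and 2, Cdh5 stood at 0.00548 and 0.112 FPKM and Esam at 0.0599 and 0.0834. Egfl7, Kdr and Vwf were lower in the labelled cKO library of the male pair and higher in that of the female pair. Tek was at 0.296 FPKM in labelled cKO 1 and at most 0.0641 in the other 3 libraries, and Pecam1 lay between 0.0668 and 0.102. The part of such cells in the Thbd difference was not tested.

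Within each pair Thbd was higher and F3 lower in the labelled cKO library, although F3 overlapped between the genotypes. The ratio of their FPKM values was 0.130 in control 1 and 1.02 in labelled cKO 1, and 0.0353 in control 2 and 0.200 in labelled cKO 2. The ratio was thus 7.85-fold higher in the labelled cKO library of the male pair and 5.67-fold higher in that of the female pair. It was formed after the values were seen and has no test.

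Procr encodes the receptor that holds protein C for activation by thrombin bound to thrombomodulin, and it is known as a marker of endothelial cells and of some stem cells. It stood at 0.922 FPKM in control 1, 0.717 in labelled cKO 1, 1.18 in control 2 and 1.15 in labelled cKO 2. The genotypes overlapped, and the pair differences of -0.16 and -0.02 were small beside those of Thbd.

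By the root mean square difference of centred log2(FPKM + 1) values over the 4 libraries, the profiles nearest to Thbd were those of Snora70 (0.190), Errfi1 (0.211) and Nppc (0.238). Errfi1, a feedback inhibitor of the EGF receptor, stood at 47.5 and 31.9 FPKM in controls 1 and 2 and at 112 and 99.1 in labelled cKO 1 and 2. Nppc, which encodes C-type natriuretic peptide, stood at 1.85 and 1.61 FPKM in controls 1 and 2 and at 6.70 and 3.85 in labelled cKO 1 and 2. Snora70 is a small nucleolar RNA that such libraries capture poorly, and its value is uncertain. Likeness over 4 libraries is a description only.

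Of the receptors cut by clotting and other serine proteases, F2r encodes PAR1, the main thrombin receptor of many cells, and F2rl1 encodes PAR2, which trypsin-like proteases activate and which keratinocytes are known to express. F2rl1 stood at 30.1 FPKM in control 1, 37.8 in labelled cKO 1, 18.9 in control 2 and 19.4 in labelled cKO 2. It was lower in both female libraries than in both male ones, by 1.59-fold in the controls and 1.95-fold in the labelled cKO libraries. F2rl1 fell between replicate 1 and replicate 2 with a mean log2 difference of -0.79 ± 0.14 (limma with replicate and genotype as terms, adjusted p = 0.00427), the reverse of F3. Of the 10 bulge markers 5 also fell in this contrast, Nfatc1 (-1.78), Lgr5 (-1.57), Tcf7l1 (-1.34), Itga6 (-1.24) and Lhx2 (-0.63), and Krt14 rose by 0.51 (limma). Melanocyte markers summed to 42.7 and 47.3 FPKM in control 1 and labelled cKO 1 and to 17.4 and 14.8 in control 2 and labelled cKO 2. Nearly all of it was Mitf (39.5, 44.3, 15.1 and 13.7 in that order), while the other genes of the list were each at 1.34 FPKM or less. Dct, for example, was at 1.22 FPKM in control 1 and 1.34 in control 2, so the sums mainly follow Mitf. The part of cell composition in the F2rl1 and F3 differences was not tested. Without labelled cKO 1 the F2rl1 difference was -0.63 (limma, adjusted p = 0.0970), and without control 1 it was -0.95 (adjusted p = 0.0907). F2rl1 differed little between genotypes, by 0.32 and 0.04 in the pairs.

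F2r stood at 4.55 FPKM in control 1, 4.91 in labelled cKO 1, 2.28 in control 2 and 4.91 in labelled cKO 2. The genotypes did not overlap, but only control 2 stood apart from the other 3 libraries. F2rl1 was above F2r in every library, with a ratio between 3.96 and 8.26. Between replicates F2r differed by -0.38 ± 0.24 (limma, adjusted p = 0.235).

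**Figure D3:**
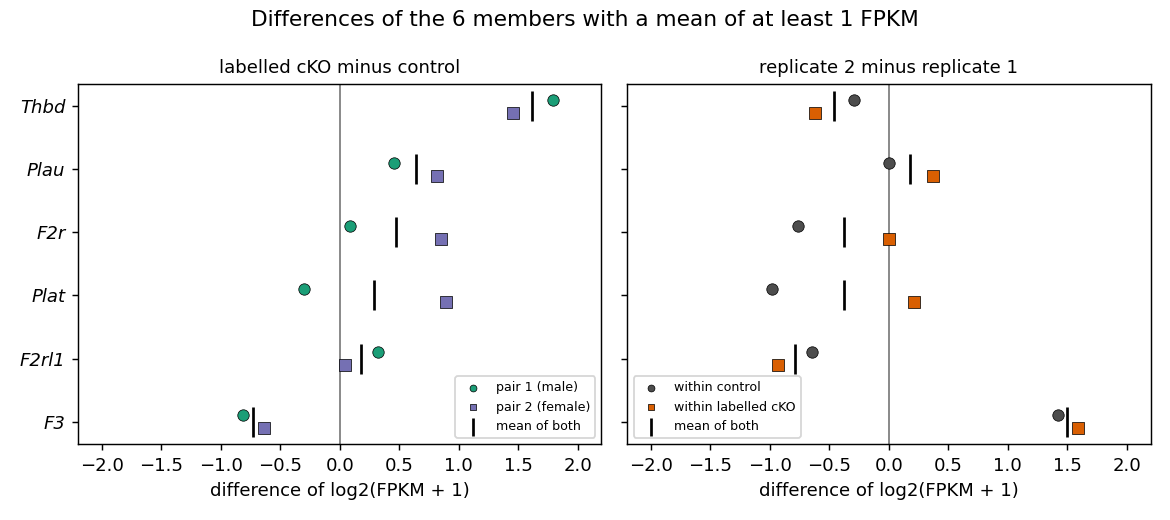
Differences of log2(FPKM + 1) for the 6 genes with a mean of at least 1 FPKM, between labelled cKO and control in each pair (left) and between replicate 2 and replicate 1 within each genotype (right), with a bar at the mean. Thbd lies at 1.79 and 1.46 on the left, and F3 at 1.42 and 1.59 on the right.

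The plasminogen activators differed from each other in how they varied. Plau, the urokinase gene, stood at 4.50 FPKM in both controls, 6.55 in labelled cKO 1 and 8.73 in labelled cKO 2. Both labelled cKO libraries were above both controls, by 1.46-fold in the male and 1.94-fold in the female pair. Plat, the gene of tissue plasminogen activator, stood at 19.2 FPKM in control 1, 15.4 in labelled cKO 1, 9.27 in control 2 and 18.0 in labelled cKO 2. It was 1.25-fold lower in the labelled cKO library of the male pair and 1.94-fold higher in that of the female pair, and the genotypes overlapped. Between replicates neither passed the test, with Plau at 0.18 ± 0.19 (limma, adjusted p = 0.459) and Plat at -0.38 ± 0.27 (adjusted p = 0.269). Without labelled cKO 2, Plat was at -0.83 and F2r at -0.80. That fit has replicate as the only term and control 2 as the only replicate 2 library, so part of the genotype difference enters both values.

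Plaur, which encodes the urokinase receptor, stood at 0.341 FPKM in control 1, 0.471 in labelled cKO 1, 0.213 in control 2 and 2.34 in labelled cKO 2. Labelled cKO 2 alone stood apart, 11-fold above its control, against 1.38-fold in the male pair. Of the 7 fibroblast markers 5 were also highest in the same library, among them Col1a1 at 6.99 FPKM against at most 1.80 in the other 3 and Lum at 0.386 against at most 0.0147. The other 2 were not: Col1a2, the most abundant of the list, stood at 13.8 FPKM there against 21.9 in labelled cKO 1, 14.8 in control 1 and 7.40 in control 2, and Pdgfra was highest in control 1. Of the 5 that were highest there, all but Col1a1 lay below 1 FPKM in every library. For Dcn the margin was small, at 0.341 FPKM against 0.337 in control 2. The sum of the fibroblast list was 22.6 FPKM in both labelled cKO libraries, 16.9 in control 1 and 8.66 in control 2. The part of these cells in the Plaur value was not tested. In sorted bulk samples, fewer cells of a type and less RNA per cell cannot be told apart.

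Over the 6 tested genes the median genotype difference was 0.38, against -0.01 over all tested genes. Thbd, F2r, F2rl1 and Plau were higher in the labelled cKO library of both pairs, F3 was lower in both, and Plat differed in sign between the pairs. The genotypes did not overlap for 3 of the 6 (Thbd, F2r and Plau), all higher in the labelled cKO libraries, where 5.47% of all tested genes were. Since the genes were proposed from this contrast, this is a description.

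Other genes of the pathway were taken from lists of 29 clotting and 13 fibrinolysis genes. Of the clotting genes 24 lay below the filter, 7 of them listed at 0 in all libraries. Among the 5 that were tested, 1 rose and 3 fell between replicate 1 and replicate 2 (limma). The 4 are Vkorc1, which recycles vitamin K (0.85 ± 0.12, limma, adjusted p = 0.00160, 87.8 FPKM in control 1 and 168 in control 2), its relative Vkorc1l1 (-0.65), Ggcx, the carboxylase that uses vitamin K (-0.85), and Pros1, the protein C cofactor protein S (-0.44, limma, adjusted p = 0.0458). Anxa5, which binds exposed phospholipid and restrains clotting, was at 0.08 and did not pass. None of the 5 was called between genotypes by limma with or without the block.

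Of the fibrinolysis genes 12 had a row and 7 were tested. S100a10, a partner of annexin A2 in binding plasminogen, rose by 1.08 ± 0.13 between replicates (limma, adjusted p = 0.000832), from 585 FPKM in control 1 to 1228 in control 2. Lrp1, a receptor that clears proteases bound to their inhibitors, fell by 0.96 (limma, adjusted p = 0.00150). Anxa2, the most abundant gene of the list, lay between 1444 and 1679 FPKM and did not pass. None of the 7 was called between genotypes by limma with or without the block. The counts of 4 of 5 and 2 of 7 stand beside the 50% of all tested genes called in the replicate contrast, and lists this small show no more than that.

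No gene of the group had a SOX9 peak of both HFSC lists within 50 kb of its locus, while 20.9% of all loci in the table did. HFSC list 1 had a peak within 50 kb of 4 of the 10 genes (F2rl1, F3, Plau and Plaur), against 38.2% of all loci. HFSC list 2 had one near 1 (Plat), against 25.5%, and the IFE list near 5 (F2rl1, Plat, Plau, Plaur and Thbd), against 36.5%. Either HFSC list had one near 5, against 42.8%. Loci of tested genes had peaks more often, 54.1%, 38.6% and 53.8% for the same lists, and long loci and gene-dense stretches raise these shares. Peak positions carry no height, so strength could not be compared. List 1 holds 8181 peaks and list 2 holds 2989, and a peak missing from list 2 may be one that was not called.

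**Figure D4:**
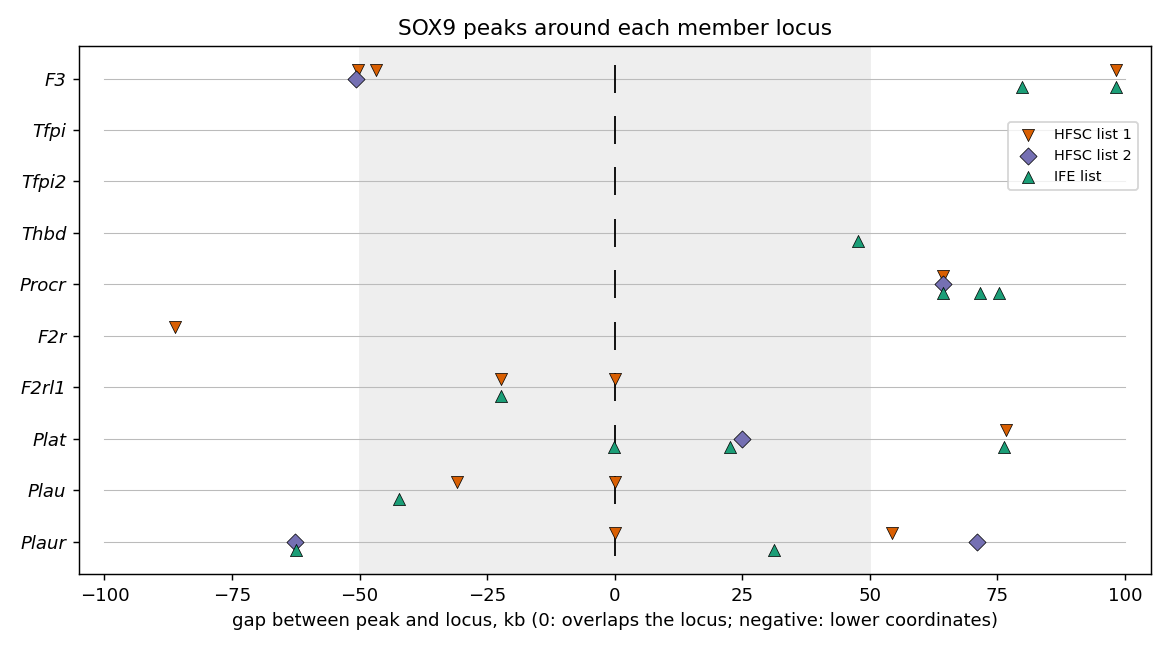
Gap in kb between each locus and the SOX9 peaks within 100 kb of it, for HFSC list 1, HFSC list 2 and the IFE list, with negative values at lower coordinates and the 50 kb window shaded. Peaks at 0 overlap the locus (F2rl1, Plau and Plaur, all from HFSC list 1), and Thbd has a single IFE peak, 47.8 kb away.

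The loci of 3 genes were overlapped by a peak, each from HFSC list 1 alone. Plau (mm9 chromosome 14, 21655884 to 21662610) has a peak at 21655542 to 21656054, across the lower end of its locus. Plaur (chromosome 7, 25247519 to 25260892) has one inside, at 25255454 to 25255936. F2rl1 (chromosome 13, 96281687 to 96295195) has one inside, at 96284849 to 96285508, and another 22.3 kb below at 96258645 to 96259386 that overlaps an IFE peak. F2r, whose locus on the same chromosome is at 96371759 to 96388414, has no peak of any list within 50 kb, and the one inside F2rl1, 86.3 kb away, is its nearest of HFSC list 1.

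Plat (chromosome 8, 23868216 to 23893319) has an IFE peak 195 bp below its locus, at 23867618 to 23868021. An IFE peak 22.6 kb and an HFSC list 2 peak 25.0 kb above Plat do not overlap each other and lie in other loci, Ap3m2 and 1700041G16Rik. Thbd (chromosome 2, 148230207 to 148233924) has no HFSC peak nearer than 223 kb, and its IFE peak is at 148281698 to 148282010. Thbd, with the largest mean difference between genotypes of the group, is thus among those with no peak of either HFSC list within 50 kb, with Procr, F2r, Tfpi and Tfpi2.

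Just beyond the window, F3 (chromosome 3, 121426455 to 121437970) has overlapping peaks of HFSC lists 1 and 2, 50.4 and 50.6 kb below it, in the locus 4930432M17Rik. The peak of list 1 inside the window lies 46.7 kb below, in the same neighbouring locus. Procr (chromosome 2, 155576853 to 155581207) has a site held by all 3 lists 64.2 to 64.3 kb above it, within the overlapping loci of Eif6 and Fam83c. With a window of 100 kb, 4 of the 10 genes had peaks of both HFSC lists, against 30.7% of all loci.

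Promoter sequences, 250 bases before to 50 after a start in RefSeq (build GRCm38.p6, not the mm9 of the peaks), were at hand for 6 of the 10 genes in 9 windows. They were searched on both strands for letters that SOX proteins are known to bind: the motif AACAAT, the motif ACAAAG and the longer motif ACAATGG, of which the first and the last can overlap. Of all 32851 promoters 10.7%, 18.7% and 3.66% hold them, and 28.8% hold at least 1. Both genes of tissue factor inhibitors had a match, Tfpi in both of its windows and Tfpi2 in 2 of its 3, which overlap and share the same letters (minus strand, chr2:84476710-84477009 and chr2:84474125-84474424 for Tfpi, chr6:3988809-3989108 for Tfpi2). Procr, F3, F2r and Plaur had none. The remaining Tfpi2 window (minus strand, chr6:3968326-3968625) had none either, and the windows with matches lie upstream of it. Which of these starts belongs to the Tfpi2 locus of the expression values was not checked, since the builds differ. The stretches with matches are shown because these 2 loci have no SOX9 peak of any list within 100 kb; capitals mark the matched letters, read 5′ to 3′ along the gene.
Tfpi, upper start: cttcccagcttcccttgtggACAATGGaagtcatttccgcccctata
Tfpi, lower start: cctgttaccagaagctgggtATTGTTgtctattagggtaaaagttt
Tfpi2: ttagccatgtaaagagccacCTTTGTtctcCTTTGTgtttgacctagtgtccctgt
A match is a description of letters and not of a binding site, and the genes are listed at 0 (Tfpi2) or below 1 FPKM (Tfpi).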

How the data were processed

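Expression was deposited by the authors as FPKM, per the file headers, with 1 column per RNA library. Build mm9 and the tools Cufflinks 1.0.3, TopHat, TopHat2 and Bowtie are credited to the submitters' processing notes, without their roles. For the peak caller, none is given in the sources used here. Peak lists deposited by the authors hold positions only. Ratios of low FPKM values between libraries did not fall on common steps (no bin held over 1.52% of them), so that depth is unknown and no count test or interval was used. Locus and peak starts were moved to 1-based positions.

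Values were tested as log2(FPKM + 1) in limma 3.58.1 (R 4.3.3, mean trend, Benjamini-Hochberg over the 14455 genes with a mean of at least 1 FPKM, threshold 0.05, two-sided), and the fit was tested on simulated data. The replicate contrast had genotype as a second term, which leaves 1 residual degree of freedom per gene. The genotype contrast had genotype alone, with the replicate block as the alternative. Per the labels, same-numbered libraries share sex, age and treatment days, and their deviations from the group means correlated at 0.812 across genes. The labels name no separate cultures or mice, so p-values measure only how far these 4 samples lie apart, which may be technical. A gap to a peak was measured from the locus edge.

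All 10 members were named, with Sox9, list genes past the threshold in the replicate contrast or of highest level, and the 3 profiles nearest to Thbd. The members and lists were chosen with earlier results of these data known.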

Additional observations from a re-analysis of the deposited data

How the results depend on the processing

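The replicate differences of F3 and F2rl1 kept their direction and stayed past the threshold in the 7 alternatives that kept all 4 libraries (pseudocounts 0.1 and 5, no filter, a filter at 5 FPKM, quantile normalization, no mean trend, no genotype term), with F3 between 1.31 and 1.56 and F2rl1 between -0.87 and -0.68. Leaving out 1 library in turn moved F3 between 1.10 and 1.91 and F2rl1 between -0.95 and -0.63. It also turned differences that had not passed: Thbd ranged from -1.35 to 0.44 (0.27 without control 2), F2r from -0.80 to 0.05, Plat from -0.83 to 0.06 and Plau from -0.23 to 0.60 (-0.05 without control 1). The number of the 6 tested members called then lay between 0 and 4. Over all genes the replicate contrast called 7221, 3293 with no filter on low values, and between 0 and 6296 with 1 library left out. The genotype contrast called 0 genes in limma, 41 with the replicate block, and between 2 and 41 with 1 library left out. Those fits have the contrast as the only term, so that the other difference enters them. The genotype difference of Thbd lay between 0.97 (pseudocount 5) and 1.94 (pseudocount 0.1), and between 1.31 and 1.93 with 1 library left out. The number of the 10 genes with peaks of both HFSC lists was 0 at 50 kb, 0 at 10 kb, 4 at 100 kb and 0 for overlapping peaks, and 5 had a peak in either HFSC list. Depth is unknown, so values below 1 FPKM carry no stated precision.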

Other observations

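The promoters of the group were read for letters that the SOX search did not cover. After the sequences had been seen, TGAGTCA was looked for on both strands (TGACTCA on the other), the letters that AP-1 factors of the JUN and FOS families are known to bind. Of the 6 genes with a promoter sequence (9 windows) 4 hold it, F3, Procr, F2r and Plaur, where 5.20% of all 32851 promoters of the same length do. The count is of genes and the share is of promoters. Since the letters were picked after these sequences had been read, setting them side by side is no test of enrichment. The matches begin 135 bases before the RefSeq start in F3, 154 in Procr, 204 in F2r and 69 in Plaur. The windows of Tfpi and Tfpi2, most of which hold SOX letters, have none of these. Capitals mark the match, read 5′ to 3′ along the gene.
F3: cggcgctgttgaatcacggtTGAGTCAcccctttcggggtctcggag
Procr: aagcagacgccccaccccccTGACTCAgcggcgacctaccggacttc
F2r: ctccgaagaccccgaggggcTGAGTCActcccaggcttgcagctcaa
Plaur: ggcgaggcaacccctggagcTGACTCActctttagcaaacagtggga
The windows lie on GRCm38.p6 at chromosome 3, 121723287 to 121723586 for F3, chromosome 2, 155750967 to 155751266 for Procr, chromosome 13, 95618417 to 95618716 (minus strand) for F2r and chromosome 7, 24462233 to 24462532 for Plaur. These 4 genes did not share a single pattern over the libraries: F3 and Procr were highest in control 2, where F2r and Plaur were lowest. For Procr the margin was small, at 1.18 FPKM against 1.15 in labelled cKO 2. No factor binding to these letters was measured.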
